A study of Mus musculus with 9 samples.

Results

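Genes for ion channels and neurotransmitter receptors were examined in RNA-seq of astrocytes and of SB28 glioblastoma cells sorted from co-cultures. The set comprised all protein-coding genes whose symbols start with Kcn, Cacn or Gabr, or with Scn, Grm, Gria, Grik, Grid or Grin followed by a digit, which gave 180 of 21811 protein-coding genes among 49315 counted genes. The astrocytes were primary neonatal cells of the C57BL6 (mito::mKate2) strain, in which the CAG promoter drives a red fluorescent mKate2 protein addressed to mitochondria. SB28 is 1 established mouse glioblastoma line of C57BL6 background that carries GFP. Equal numbers of SB28 cells and astrocytes were kept together without treatment for 2 days, after which 3 populations were collected, namely astrocytes, SB28 cells without the mKate2 signal (mKate2-) and SB28 cells with it (mKate2+). Each population was sequenced in 3 libraries, reported to come from separate co-cultures, so all tumor cells had shared a culture with astrocytes and no SB28 cells grown alone were included. The written sort gates assign the astrocyte dye CellTrace Violet to the tumor cells, and the populations were therefore taken by the library names.

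Ion channels set the membrane potential and carry calcium and sodium signals, and each is built from pore-forming subunits with accessory subunits that alter trafficking and gating. Astrocytes are known for inward-rectifier and 2-pore-domain potassium channels that clear potassium released by neurons, and for receptors that respond to glutamate and GABA, the main excitatory and inhibitory transmitters of the brain. Glioma cells are known to express calcium-activated potassium channels and, in some tumors, calcium-permeable glutamate receptors.

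The promoter sequences of 3 potassium channel genes that recur below are shown because they represent the 2 opposite patterns in these data, Kcnk5 and Kcnn4 being higher in SB28 cells and Kcnj10 lower. Each is the 250 bases before the RefSeq start of transcription in GRCm38.p6, given in the direction of transcription, with GGGCGG or its complement CCGCCC, the core of the GC box, in capitals. The windows lie at chr14:20181783-20182032 on the minus strand for Kcnk5, chr7:24370013-24370262 on the plus strand for Kcnn4 and chr1:172340960-172341209 on the plus strand for Kcnj10.
Kcnk5: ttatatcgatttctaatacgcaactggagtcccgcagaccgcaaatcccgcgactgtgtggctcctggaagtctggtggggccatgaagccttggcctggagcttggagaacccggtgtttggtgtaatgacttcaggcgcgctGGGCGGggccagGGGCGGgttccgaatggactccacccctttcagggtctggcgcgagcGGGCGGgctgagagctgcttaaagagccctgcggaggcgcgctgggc
Kcnn4: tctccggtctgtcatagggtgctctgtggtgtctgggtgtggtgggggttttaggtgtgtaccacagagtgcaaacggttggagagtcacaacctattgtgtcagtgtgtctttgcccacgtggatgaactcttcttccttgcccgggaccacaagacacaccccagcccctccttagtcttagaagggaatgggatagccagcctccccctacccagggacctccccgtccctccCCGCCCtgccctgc
Kcnj10: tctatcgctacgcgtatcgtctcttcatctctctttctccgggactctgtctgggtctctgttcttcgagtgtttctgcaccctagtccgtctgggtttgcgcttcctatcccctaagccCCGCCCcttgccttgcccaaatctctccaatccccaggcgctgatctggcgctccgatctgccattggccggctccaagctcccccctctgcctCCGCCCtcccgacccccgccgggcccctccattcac
The GC box core occurred 3 times in the Kcnk5 window, once in that of Kcnn4 and 2 times in that of Kcnj10, and TATAAA or its complement occurred in none of them. Kcnk5 and Kcnj10 also had many CG dinucleotides, 19 and 17, against 6 for Kcnn4. Over all promoter windows of the RefSeq table, the GC box core was present in 32.7% of 32851 windows and TATAAA in 12.4%. Of the 180 genes, 130 had an entry, with 174 windows, and 43.1% of these held the GC box core and 5.17% held TATAAA. The 33 genes with an entry that were lower in both SB28 populations had the GC box core in 39.6% of 53 windows, and the 4 with an entry that were higher in both had it in 3 of 7.

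Before the comparisons, libraries and cell identity were examined. Total counts ranged from 24454561 to 35135662 in astrocytes, from 27187348 to 35891589 in mKate2- cells and from 34175016 to 39287841 in mKate2+ cells. The astrocyte markers Slc1a3, a glutamate transporter, and Apoe, a lipid carrier, averaged 195.1 and 264.8 CPM (counts per 1000000 counts of the library) in astrocytes. In the SB28 libraries Slc1a3 lay between 0.287% and 1.22% of its astrocyte mean and Apoe between 0.740% and 1.22%. Of 11 astrocyte markers tested, 9 were lower in each SB28 population, among them 5 of 7 (mKate2-) and 4 of 6 (mKate2+) that were above the filter described below in both cell types. The other two, which were not called, were the transcription factor Sox9, with log2 differences of -0.91 and -0.95, and the connexin Gja1, which averaged 264.6 CPM in the mKate2- and 276.1 CPM in the mKate2+ libraries and was 168, 212 and 216 CPM in astrocytes. Gjb6, another connexin, was at 0 in the 9 libraries. Over the list of 15 astrocyte markers, 12 averaged above 1 CPM in astrocytes, against 7 (mKate2-) and 6 (mKate2+), and the list summed to 1122, 1120.3 and 1748 CPM in astrocytes and to between 371 and 447 CPM in the SB28 libraries, where Gja1 was the most abundant. The neuronal marker Rbfox3 was at 0 in the 9 libraries. The astrocyte libraries also held markers of other cells, with summed levels of 983, 542 and 612 CPM for 10 oligodendrocyte lineage genes, led by Olig1, 1373, 1477 and 1085 CPM for 7 fibroblast genes, led by Col1a2, 89.5, 144 and 154 CPM for 18 neuronal genes, led by Map2, and 100.02, 98.8 and 103 CPM for 10 microglial genes. In the SB28 libraries the same lists summed to between 39.1 and 48.6, 555.11 and 881.04, 50 and 62.7, and 75.5 and 93.8 CPM, respectively. Their part in the channel levels was not tested.

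Astrocyte replicate 3 stood apart from the other astrocyte libraries. It contained 78 channel and receptor genes above 1 CPM, against 54 and 56 in replicates 1 and 2. Among the 65 genes with an astrocyte mean above 1 CPM, 10 (15.4%) were more than 5 times higher in replicate 3 than in both others. The same held for 2.23% of the 12414 protein-coding genes with such a mean. The 10 genes were the AMPA receptor gene Gria1, the kainate receptor genes Grik3 and Grik4, the delta receptor gene Grid1, the calcium channel genes Cacna1d, Cacna1g and Cacnb4, and the potassium channel genes Kcna4, Kcnk1 and Kcns3. The mean included replicate 3, so a gene high in that library alone could enter. The channel and receptor genes were also not matched for level with the protein-coding genes, and both shares are given as a description. The water channel Aqp4, a marker of mature astrocytes, was 5.64 and 6.82 CPM in replicates 1 and 2 and 59.7 CPM in replicate 3. The list of 10 vascular genes summed to 71.8, 74.7 and 263 CPM, with Flt1 at 5.64, 12.4 and 192.2 CPM. Flt1 was also between 47.5 and 60.2 CPM in the SB28 libraries. Cdh5, Kdr, Rgs5 and Myh11 were likewise highest in replicate 3, whereas Pecam1 (1.02, 0.703 and 0.455 CPM), Tek, Pdgfrb and Des were not. Cldn5 was at 0 in the astrocyte libraries. The source of these differences was not tested. Among the SB28 libraries mKate2+ replicate 2 held the lowest value for 48.1% of 10927 protein-coding genes above 1 CPM on average, but for 7 of 26 channel and receptor genes at that level (26.9%). For these 26 genes, mKate2- replicate 2 held the highest value for 12 (46.2%, against 20.1% of the protein-coding genes). mKate2- replicate 1 held the lowest for 8 (30.8%, against 14.7%).

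Channel and receptor genes were fewer and lower in SB28 cells. Of the 180 genes, 65 averaged above 1 CPM in astrocytes, 25 in mKate2- cells and 26 in mKate2+ cells, which is 36.1%, 13.9% and 14.4% of them. Over all protein-coding genes the corresponding shares were 56.9%, 50.2% and 50%. Conversely, 16 genes were without a count in the 3 astrocyte libraries, 51 in the mKate2- libraries and 45 in the mKate2+ libraries, and 10 had no count in any of the 9 libraries. The summed level was 1418, 1441 and 1824 CPM in astrocytes, 533, 610 and 562 CPM in the mKate2- and 578, 542 and 539 CPM in the mKate2+ libraries, so the astrocyte libraries did not overlap with either tumor population whereas the tumor populations overlapped with each other. In these bulk libraries a smaller number of expressing cells and less RNA in each cell cannot be told apart.

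**Figure D1:**
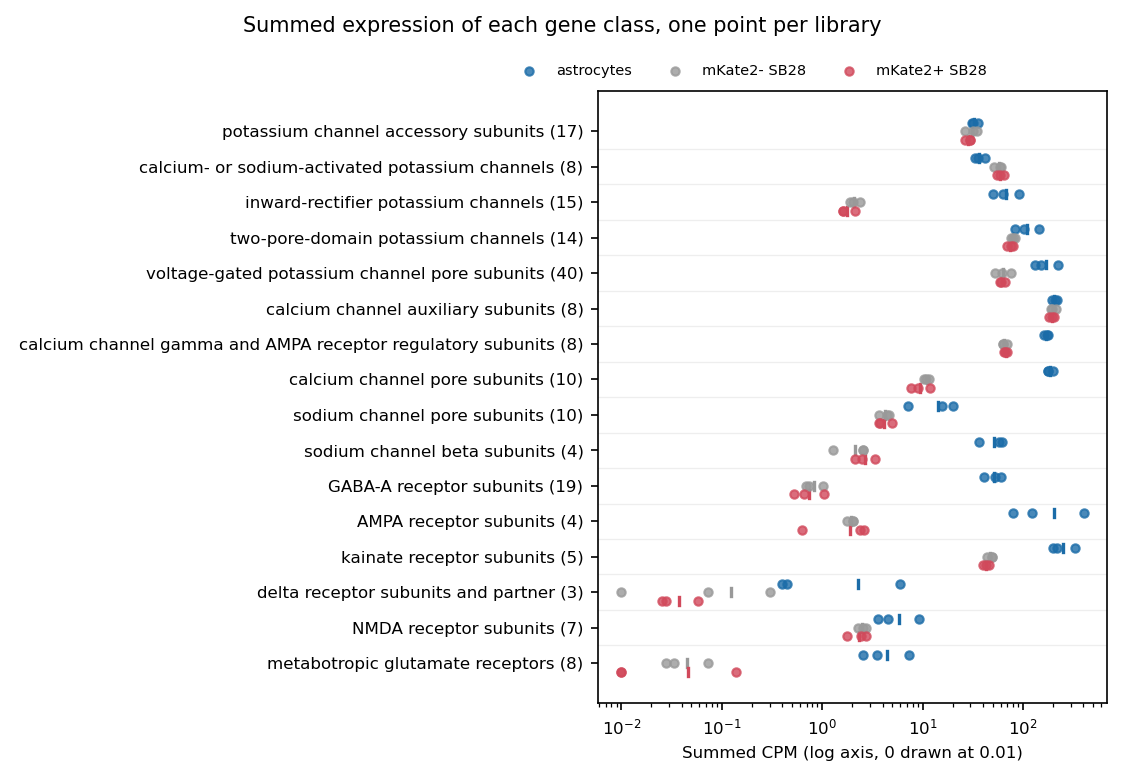
Summed CPM (log axis, with 0 drawn at 0.01) of the genes in each of 16 functional classes, with the number of genes in parentheses, 1 point per library and a vertical bar at the mean of 3 libraries. Calcium channel auxiliary subunits lie at about the same level in the 3 populations, whereas inward-rectifier, calcium channel pore, GABA-A and AMPA receptor classes lie far lower in both SB28 populations, and the wide spread of AMPA receptor subunits in astrocytes comes from replicate 3.

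The difference was uneven across classes, as the plot of summed expression by class shows. Pore subunits of voltage-gated calcium channels summed to 185.7 ± 13.6 CPM in astrocytes (mean ± SD, n = 3), 11 ± 0.653 in mKate2- and 9.48 ± 2.04 in mKate2+ cells. The auxiliary α2δ and β subunits that assemble with these pores stayed at 206.0 ± 11.9, 199.2 ± 11 and 194.5 ± 12.6 CPM. Calcium- or sodium-activated potassium channels were the 1 class with a higher sum in SB28 cells, at 36.9 ± 4.12, 57.2 ± 4.83 and 59.5 ± 4.94 CPM. Of the 4 genes of this class tested below, Kcnn4 was higher and 3 were lower in each comparison, so the higher sum rested on 1 gene. GABA-A receptor subunits were among the classes with much lower sums, at 51.1 ± 9.45 CPM in astrocytes and 0.822 ± 0.182 and 0.748 ± 0.274 CPM in the SB28 populations.

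Each comparison with astrocytes was fitted over all genes with edgeR's quasi-likelihood test, and genes were called at an absolute log2 fold change above 1 with a Benjamini-Hochberg adjusted P value below 0.05. In mKate2- cells 60 of the 180 genes passed the filter of more than 1 CPM in at least 2 of the 6 libraries, of which 6 were higher and 46 lower than in astrocytes, where the same rule called 11.5% of 13356 genes higher and 22.4% lower. In mKate2+ cells 60 genes passed, with 7 higher and 46 lower, against 12.2% and 22.8% of 13342 genes. However, 35 and 34 of these genes passed the filter only through astrocytes, and 1 and 2 only through SB28 cells, so that the filter itself favoured a difference, and the counts are therefore also given for genes above the filter in both populations, a restriction chosen after the data were seen. Of 23 such genes in mKate2- cells, 5 (21.7%) were higher and 11 (47.8%) lower, with 12.1% and 12.9% of 11322 genes as the background. Of 24 such genes in mKate2+ cells, 5 (20.8%) were higher and 12 (50%) lower, with 13.1% and 13.1% of 11265 genes as the background. Of the genes described below, Kcnj2, Kcnj10, Kcnj16, Kcnd3, Kcnf1, Kcnab2, Kcnn3, Kcnk1, Gria1, Gria2, Gria4, Grm3, Scn2b and Gabre passed only through astrocytes in both comparisons. Gria3 and Kcnn1 did so in that of mKate2- cells and Cacna1h in that of mKate2+ cells. The log2 fold changes, ratios and bounds of these genes there describe the size of the difference and are given without a P value. The higher share rests on the same 5 genes in each case, which include Kcnk5, Kcnn4, Kcnab1 and Scn2a, and both comparisons used the same astrocyte libraries. Without a filter, 7 of 170 genes with a count were higher and 75 lower (44.1%) in mKate2- cells, where the background was 6.56% and 15.3%, and 8 of 166 were higher and 69 lower (41.6%) in mKate2+ cells, where it was 7.06% and 15.2%. When astrocyte replicate 3 was also left out, 53 of 162 (32.7%) were lower and 9 higher in mKate2- cells, beside backgrounds of 14.3% and 7.86%, and 57 of 157 (36.3%) were lower and 9 higher in mKate2+ cells, beside 14.4% and 8.05%. By the libraries alone, 65 of the 170 genes with a count (38.2%) were lower in all 6 SB28 libraries than in each astrocyte library and 11 (6.47%) were higher, against 30.6% and 20.8% of 17254 protein-coding genes with a count.

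**Figure D2:**
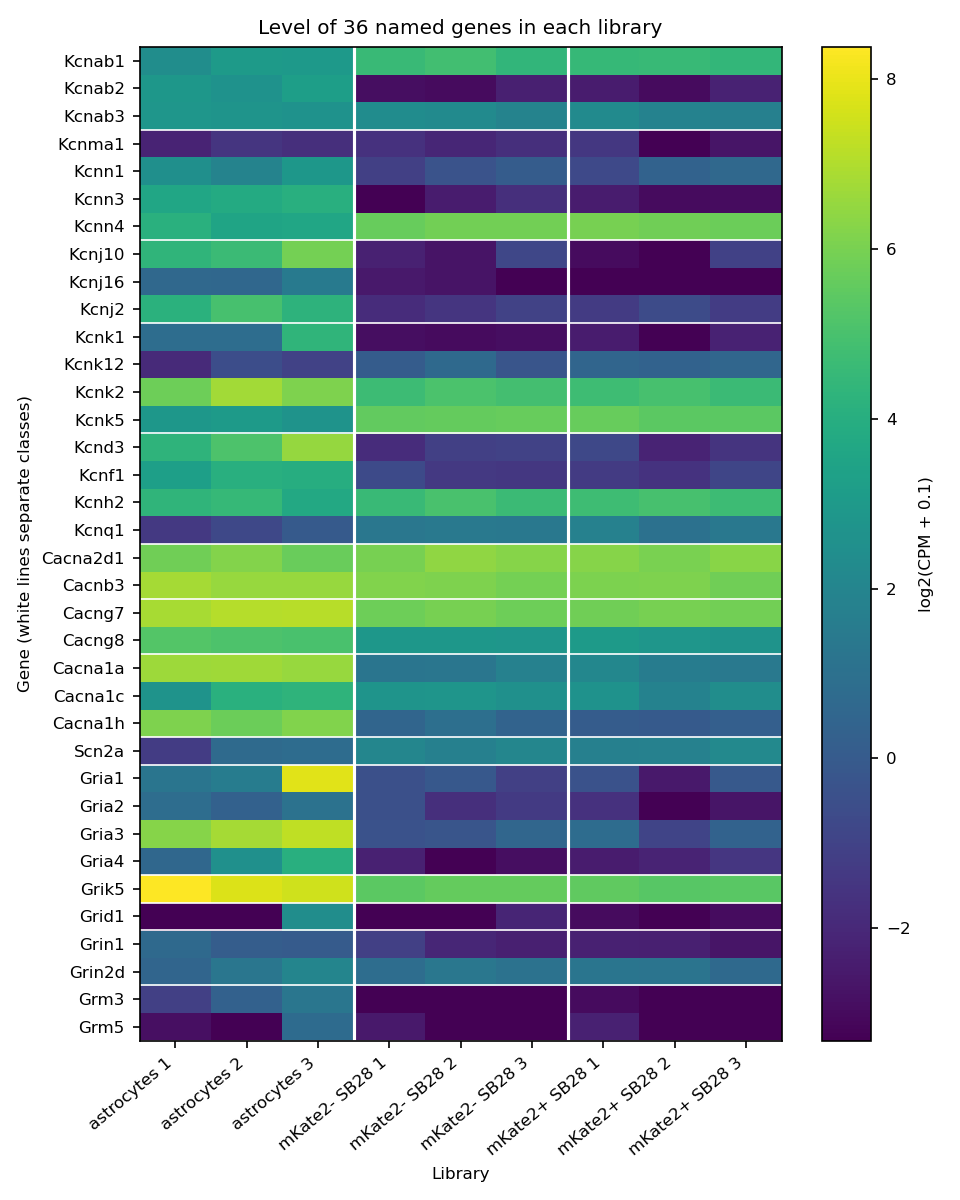
Level of 36 named channel and receptor genes as log2(CPM + 0.1) in each of the 9 libraries, ordered by class. Kcnk5, Kcnn4 and Kcnab1 are brighter across the 6 SB28 libraries, Cacna1a, Gria3 and Kcnj2 darker, and Gria1, Kcnk1 and Grid1 are bright in astrocyte replicate 3 above all.

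Among potassium channels, those higher in SB28 cells came from several subfamilies. Kcnk5 (chr14:20140057-20181809 in GRCm38, minus strand) encodes TASK-2, a 2-pore-domain channel gated by extracellular pH, and its promoter is the first shown above. Its levels were 7.32, 8.10 and 6.32 CPM in astrocytes, 47.5, 48.6 and 49.7 CPM in the mKate2- and 50.8, 42.5 and 42.9 CPM in the mKate2+ libraries. The SB28 libraries all lay far above the astrocyte libraries, with log2 fold changes of 2.76 ± 0.141 (SE, adjusted P = 8.6e-06) and 2.72 ± 0.160 (adjusted P = 1.56e-05). Kcnn4 (chr7:24370263-24386690, plus strand) encodes the intermediate-conductance calcium-activated channel KCa3.1. It measured 17, 11.4 and 12 CPM in astrocytes, 50.8, 58.5 and 58.5 CPM in the mKate2- and 63.7, 57.2 and 53.3 CPM in the mKate2+ libraries. Again no SB28 library overlapped with an astrocyte library, and the log2 fold changes were 2.07 ± 0.193 (adjusted P = 7.92e-05) and 2.19 ± 0.200 (adjusted P = 9.99e-05). Per kilobase of exonic sequence, only Cacng7 and Cacnb3 were more abundant than Kcnk5 and Kcnn4 in SB28 cells, where these averaged 13.8 and 11.1 CPM per kilobase over 6 libraries.

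Kcnab1, a β subunit of Kv1 channels, was 5.15, 8.16 and 7.94 CPM in astrocytes and between 20.6 and 28.4 CPM in SB28 cells, with log2 fold changes of 1.80 ± 0.214 and 1.76 ± 0.209 (adjusted P = 0.000243 and 0.000319). It rose in both SB28 populations without overlap with the astrocyte libraries. Kcnq1, a slow delayed rectifier, was 0.286, 0.489 and 0.882 CPM in astrocytes and between 1.93 and 3.41 CPM in SB28 cells. It was called higher in both comparisons but passed the filter only through SB28 libraries, and its levels are given as a description. It shares exonic sequence with the antisense RNA Kcnq1ot1, which was 6.38, 3.09 and 4.35 CPM in astrocytes and between 2.23 and 3.79 CPM in SB28 cells, and reads of overlapping genes cannot be separated here because use of the strand in counting is not stated. Exons of Cacna1a, Cacna1h, Grin1, Grin2d, Kcnab1, Kcnab3, Kcnd3, Kcnk1, Kcnk2, Kcnma1 and Kcnn1 also overlap a gene on the opposite strand, and those of Cacng8, Gria2, Gria3, Gria4, Grid1 and Kcnab2 a gene on the same strand, so that their counts carry the same limit. Kcnk12, a 2-pore-domain channel gene, was low in all libraries, at 0.164, 0.581 and 0.398 CPM in astrocytes, 0.956, 1.5 and 0.737 CPM in the mKate2- and 1.30, 1.20 and 1.35 CPM in the mKate2+ libraries. It passed the filter only through the mKate2+ libraries, in the comparison of mKate2+ cells with astrocytes and in that of the SB28 populations, so that the filter itself favoured a difference there. Without a filter, it was called in mKate2+ cells (adjusted P = 0.0203 in edgeR) and not in mKate2- cells (adjusted P = 0.0609). Between the SB28 populations its libraries overlapped and it was not called. The mKate2+ over mKate2- log2 difference of Kcnk12 was 0.35 in the fit with a replicate block. The unequal calls against astrocytes therefore do not show a difference between the SB28 populations.

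Inward-rectifier channels, by contrast, were close to absent from SB28 cells, with class sums of 2.10 ± 0.258 and 1.77 ± 0.289 CPM against 68.6 ± 21.1 CPM in astrocytes, and none of the 15 genes averaged above 1 CPM there. Kcnj10 (chr1:172341210-172374085, plus strand), which encodes Kir4.1, the main potassium-buffering channel of astrocytes, was 20.1, 25.3 and 61.4 CPM in astrocytes. It was 0.110, 0.0557 and 0.469 CPM in the mKate2- and 0.0277, 0 and 0.380 CPM in the mKate2+ libraries, that is, 0.595% and 0.382% of the astrocyte mean. The fitted log2 fold changes were -7.38 ± 0.726 and -7.99 ± 0.926, and like all inward-rectifier genes tested, Kcnj10 had passed the filter only through astrocytes. At these low counts the size depended on single libraries, being -6.75 and -7.37 without astrocyte replicate 3, -8.70 without mKate2- replicate 3, -7.39 without mKate2+ replicate 2 and -10.94 without mKate2+ replicate 3, and the direction did not change. Kcnj2, the strong rectifier Kir2.1, was 17.6, 31.7 and 18.9 CPM in astrocytes and at most 0.535 CPM in SB28 cells, with log2 fold changes of -6.31 ± 0.379 and -5.77 ± 0.382. Kcnj16, the Kir5.1 partner of Kir4.1, was 1.47, 1.38 and 2.70 CPM in astrocytes and 0.0736, 0.0557 and 0 CPM in mKate2- cells. It had no count in the 3 mKate2+ libraries against 176 in astrocytes, which makes it at least 69.6-fold lower when the mKate2+ libraries together are assigned 3 counts.

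The 2-pore-domain genes diverged among themselves. Kcnk2, which encodes the mechanosensitive channel TREK-1, was the leading member of its class per kilobase in astrocytes, at 15.5 ± 5.41 CPM per kilobase. Its levels of 55.3, 107 and 68.4 CPM in astrocytes compared with 26.1, 33.4 and 29.2 CPM in the mKate2- and 26.7, 31.6 and 24.7 CPM in the mKate2+ libraries. It remained well expressed in SB28 cells but was lower without overlap, with log2 fold changes of -1.36 ± 0.233 and -1.39 ± 0.251 (adjusted P = 0.00148 and 0.00230). Kcnk1, which encodes TWIK-1, was 1.72, 1.71 and 19.8 CPM in astrocytes and at most 0.117 CPM in SB28 cells. It had 3 counts in the mKate2- libraries together and 792 in astrocytes, a ratio of 265.78 with a 95% counting interval from 90.6 to 1291.52. Most of these astrocyte counts came from replicate 3, and the fitted log2 fold change of -7.71 became -5.55 without it. In mKate2+ cells its log2 fold change of -6.75 ± 1.39 became -4.61 without astrocyte replicate 3, -6.16 without mKate2+ replicate 2 and -7.37 without mKate2+ replicate 3.

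Of the 40 pore subunits of voltage-gated potassium channels, Kcnd3 was the leading member per kilobase in astrocytes and Kcnh2 in SB28 cells. Kcnd3, the A-type channel Kv4.3, was 19.3, 34.0 and 92.1 CPM in astrocytes and at most 0.472 CPM in SB28 cells, with log2 fold changes of -7.20 ± 0.716 and -7.36 ± 0.768. These were -6.35 and -6.53 without astrocyte replicate 3, and the second was -7.96 without mKate2+ replicate 1. Kcnf1, a silent subunit that modifies other voltage-gated channels, was 9.73, 16.6 and 15.6 CPM in astrocytes and at most 0.515 CPM in SB28 cells, with log2 fold changes of -5.29 ± 0.364 and -5.35 ± 0.358. Kcnh2, the rapid delayed rectifier ERG1, was 19.8, 22.6 and 13.3 CPM in astrocytes and between 24 and 32.5 CPM in SB28 cells, with log2 differences of 0.56 ± 0.227 and 0.66 ± 0.224 that did not reach the threshold of 1 (adjusted P = 0.0613 and 0.0351).

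Accessory and calcium-activated subunits showed the same lack of a common direction. Kcnab2, the other Kv1 β subunit named here, was 7.24, 6.05 and 9.45 CPM in astrocytes and at most 0.117 CPM in SB28 cells, with log2 fold changes of -7.01 ± 0.471 and -6.55 ± 0.482, the first of which was -7.71 without mKate2- replicate 3. Kcnab3, the remaining β subunit, was between 6.18 and 6.99 CPM in astrocytes and between 3.34 and 5.00 CPM in SB28 cells, with log2 differences of -0.55 ± 0.225 and -0.68 ± 0.239 that were not called. Among small-conductance calcium-activated channels, Kcnn3 was 11.9, 14 and 16.5 CPM in astrocytes and at most 0.201 CPM in SB28 cells, with log2 fold changes of -7.12 ± 0.584 and -8.09 ± 0.406, which were -8.10 without mKate2- replicate 3 and -8.74 without mKate2+ replicate 1. Kcnn1 was 5.60, 3.61 and 7.23 CPM in astrocytes and between 0.368 and 1.43 CPM in SB28 cells, with log2 fold changes of -2.99 ± 0.443 and -2.32 ± 0.470 (adjusted P = 0.00392 for the latter). Kcnma1, which encodes the large-conductance BK channel, was below 0.5 CPM in the 9 libraries and was not tested.

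**Figure D3:**
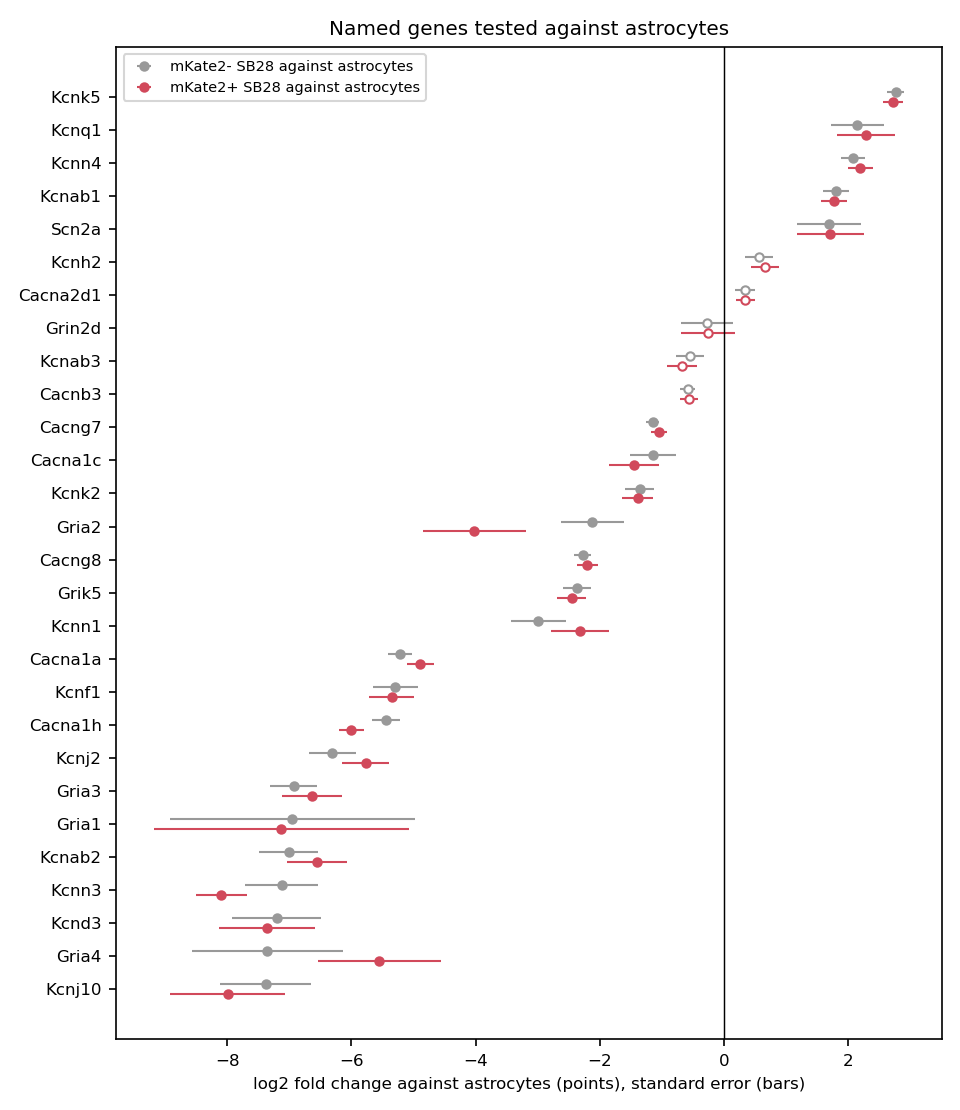
Log2 fold change against astrocytes (points) and its standard error (bars) from edgeR for 28 named genes that were tested and had more than 3 counts in each SB28 population, with filled points for called genes, including those that passed the filter only through astrocytes or, for Kcnq1, only through SB28 cells, and open points for the others. Points for the mKate2- and mKate2+ populations, which share the astrocyte libraries, run from 2.76 for Kcnk5 to -8.09 for Kcnn3, with 5 genes called higher at the top, 5 uncalled genes with open points near 0 and the widest bars for Gria1.

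Among calcium channel pore genes, Cacna1a and Cacna1h were far lower in SB28 cells and Cacna1c less clearly so. Cacna1a (chr8:84388440-84640246, plus strand) encodes the pore of P/Q-type channels and was 100.4, 104 and 96.5 CPM in astrocytes, 2.24, 2.31 and 3.45 CPM in the mKate2- and 4.19, 2.95 and 2.52 CPM in the mKate2+ libraries. Its log2 fold changes were -5.22 ± 0.193 and -4.89 ± 0.212 (adjusted P = 4.02e-06 and 6.46e-06). Cacna1h, the T-type pore Cav3.2, was 69.7, 54.0 and 71.9 CPM in astrocytes, 1.32, 1.84 and 1.24 CPM in the mKate2- and 0.943, 0.891 and 1.05 CPM in the mKate2+ libraries, with log2 fold changes of -5.45 ± 0.225 and -6.00 ± 0.200 (adjusted P = 4.68e-06 for the former). Both genes were lower in each SB28 library than in any astrocyte library and varied little among replicates. Cacna1c, the L-type pore Cav1.2, was the leading pore gene per kilobase in SB28 cells and was 6.42, 17 and 19.7 CPM in astrocytes, 6.47, 6.83 and 5.80 CPM in the mKate2- and 6.19, 3.59 and 5.27 CPM in the mKate2+ libraries. The astrocyte and mKate2- libraries overlapped, and the calls at log2 fold changes of -1.15 ± 0.369 and -1.45 ± 0.408 (adjusted P = 0.0262 and 0.0170) were lost in 5 and 2 of the 6 fits that each left out 1 library.

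Auxiliary subunits differed in direction from gene to gene. Cacnb3, a cytoplasmic β subunit, was the leading auxiliary gene per kilobase in both cell types, at 111, 95.8 and 96.3 CPM in astrocytes and between 56.4 and 70.5 CPM in SB28 cells, with log2 differences of -0.59 ± 0.118 and -0.57 ± 0.142 that were below the threshold of 1 (adjusted P = 0.00336 and 0.0102). Cacna2d1, the α2δ-1 subunit that binds gabapentin, was 56.9, 72.9 and 52.3 CPM in astrocytes, 63.5, 86.1 and 77.0 CPM in the mKate2- and 76.6, 64.9 and 77.6 CPM in the mKate2+ libraries. Its libraries overlapped, and the log2 differences of 0.33 ± 0.163 and 0.34 ± 0.148 were not called (adjusted P = 0.110 and 0.0809). Cacnb2, another β subunit, was 26.0, 40.1 and 27.6 CPM in astrocytes, 55.9, 54.6 and 54.9 CPM in the mKate2- and 59.3, 45.2 and 59.9 CPM in the mKate2+ libraries. Its SB28 libraries lay above those of astrocytes without overlap, although the log2 differences of 0.84 ± 0.168 and 0.88 ± 0.193 did not reach the threshold of 1 (adjusted P = 0.00327 and 0.00563). Of the 8 auxiliary genes 4 were tested, and 1 was called lower in each comparison, whereas without a filter 3 of 8 were lower in each. The gene called was Cacnb1, named like Cacnb2 after its values were seen, at 12.1, 7.77 and 10.2 CPM in astrocytes and between 1.17 and 1.89 CPM in SB28 cells.

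The Cacng genes encode γ subunits, most of which serve as transmembrane AMPA receptor regulatory proteins. Cacng7 was the most abundant of the 180 genes per kilobase in both cell types, at 53.4 ± 5.16 CPM per kilobase in astrocytes, 23.8 ± 1.44 in mKate2- and 24.5 ± 1.16 in mKate2+ cells. It was 116, 135 and 140.2 CPM in astrocytes and between 55.9 and 62.9 CPM in SB28 cells, with log2 fold changes of -1.15 ± 0.105 and -1.05 ± 0.123 (adjusted P = 7.37e-05 and 0.000301). The second value lay at the threshold of 1 and was -1.0 and not called without mKate2+ replicate 1, and -0.99 without the filter. Cacng8, another of these regulatory proteins, was 37.6, 34.5 and 32.2 CPM in astrocytes and between 6.41 and 8.24 CPM in SB28 cells, with log2 fold changes of -2.28 ± 0.136 and -2.20 ± 0.163 (adjusted P = 1.28e-05 and 4.05e-05).

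**Figure D4:**
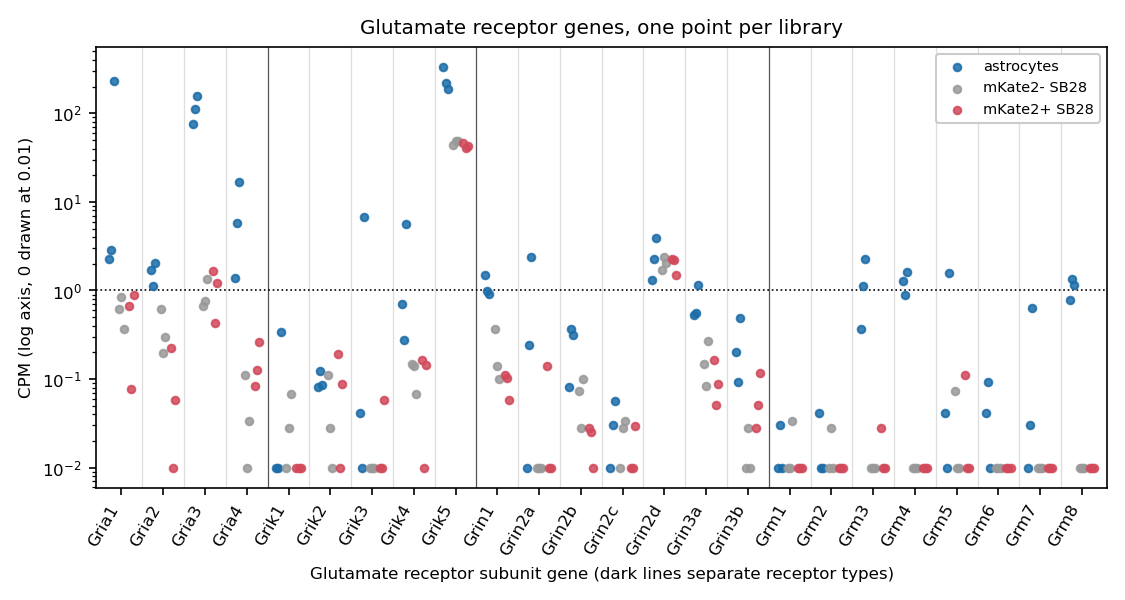
CPM (log axis, with 0 drawn at 0.01) of each ionotropic and metabotropic glutamate receptor gene, 1 point per library, with a dotted line at 1 CPM. Grik5 stands out as the abundant receptor gene in SB28 cells, Grin2d overlaps between the populations, and Gria1 shows 1 astrocyte point at 231 CPM far above the other 2.

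The receptors served by these regulatory subunits were themselves nearly absent from SB28 cells. Gria3 (chrX:41400854-41678601, plus strand), an AMPA receptor subunit, was 75.0, 112 and 155 CPM in astrocytes, 0.662, 0.752 and 1.34 CPM in the mKate2- and 1.66, 0.433 and 1.20 CPM in the mKate2+ libraries. It was lower without overlap by log2 fold changes of -6.93 ± 0.372 and -6.63 ± 0.486 (adjusted P = 3.89e-05 for the latter), and it was the leading AMPA subunit per kilobase in SB28 cells. Gria1 was 2.25, 2.87 and 231 CPM in astrocytes and at most 0.878 CPM in SB28 cells, so that astrocyte replicate 3 set its mean. Its log2 fold changes of -6.95 ± 1.97 and -7.13 ± 2.05 were -2.05 and -2.22 without that library. Gria2, the subunit that renders AMPA receptors impermeable to calcium, was 1.72, 1.13 and 2.02 CPM in astrocytes, 0.625, 0.195 and 0.302 CPM in the mKate2- and 0.222, 0 and 0.0585 CPM in the mKate2+ libraries. It was low in both cell types, and its log2 fold changes were -2.12 ± 0.508 and -4.02 ± 0.824, the latter -5.61 without mKate2+ replicate 1. Gria4 was 1.39, 5.72 and 16.8 CPM in astrocytes and at most 0.263 CPM in SB28 cells, with log2 fold changes of -7.35 ± 1.21 and -5.55 ± 0.988. Without astrocyte replicate 3 these were -6.22 and -4.43, and the first was -8.66 and -6.71 without mKate2- replicate 1 or 2.

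Grik5 was lower as well but remained the most abundant glutamate receptor gene in SB28 cells, as the plot of these genes shows. It encodes GluK5, a high-affinity kainate receptor subunit that does not form channels alone, and lies at chr7:25009849-25072346 on the minus strand. Its levels were 332, 217 and 186 CPM in astrocytes, 43.6, 49.1 and 49.0 CPM in the mKate2- and 45.6, 40.1 and 42.3 CPM in the mKate2+ libraries. It was lower in SB28 cells without overlap, with log2 fold changes of -2.37 ± 0.232 and -2.45 ± 0.233 (adjusted P = 0.000102 and 0.000119), but still reached 9.14 ± 0.609 and 8.25 ± 0.534 CPM per kilobase. The subunits Grik1, Grik2 and Grik3, which can form kainate receptor channels, were each below 0.2 CPM in the SB28 libraries, and Grik4 likewise.

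Among NMDA receptor genes, Grin1, the obligatory subunit, was 1.51, 0.978 and 0.911 CPM in astrocytes and at most 0.368 CPM in SB28 cells, and did not pass the filter. Grin2d was 1.31, 2.29 and 3.93 CPM in astrocytes and between 1.49 and 2.40 CPM in SB28 cells, with log2 differences of -0.28 ± 0.415 and -0.26 ± 0.438 (adjusted P = 0.584 and 0.628). Without astrocyte replicate 3 Grin2d turned direction, at 0.18 and 0.19, and was not called. It was the leading NMDA receptor gene per kilobase in both cell types, and its libraries overlapped. Metabotropic receptors were low throughout, and their class sum was 4.44 ± 2.49 CPM in astrocytes. Grm3, the receptor mGluR3, was the leading one per kilobase in astrocytes, at 0.368, 1.13 and 2.28 CPM. It had 126 counts in astrocytes and none in the mKate2- libraries, hence at least 42.3-fold lower, and 1 count in the mKate2+ libraries, a ratio of 149.5 with a 95% counting interval from 26.3 to 5951.35. Grm5, which is abundant in immature astrocytes, was 0.0409, 0 and 1.59 CPM in the astrocyte libraries, with a count of 2 in the mKate2- libraries together. Grid1, a delta receptor gene, was at 0, 0 and 5.21 CPM in astrocytes and did not pass the filter.

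Of the 19 GABA-A receptor subunit genes, none averaged above 1 CPM in either SB28 population, and 11 were without a count in the 3 libraries of each. Gabre, the ε subunit, named after its values were seen, was 1.47, 1.93 and 1.94 CPM in astrocytes, 0.0368, 0.195 and 0.067 CPM in the mKate2- and 0.111, 0.178 and 0.146 CPM in the mKate2+ libraries. It was lower in each SB28 library than in any astrocyte library, with log2 fold changes of -4.02 ± 0.552 and -3.50 ± 0.412, the first of which was -4.96 without mKate2- replicate 2.

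Pore subunits of sodium channels summed to 14.3 ± 6.58 CPM in astrocytes and to 4.23 ± 0.520 and 4.14 ± 0.726 CPM in the SB28 populations, mostly from Scn2a. Scn2a, the pore Nav1.2, was 0.327, 1.56 and 1.68 CPM in astrocytes and between 3.33 and 4.39 CPM in the SB28 libraries. It was higher without overlap, with log2 fold changes of 1.69 ± 0.518 and 1.71 ± 0.537 (adjusted P = 0.0219 and 0.0260), but the calls were lost without mKate2- replicate 1 or 3 and without mKate2+ replicate 2 or 3 (log2 fold changes between 1.6 and 1.74). Scn2b, named after its values were seen, had 217 counts in astrocytes and none in mKate2- cells, at least 72.8-fold lower.

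The low values in SB28 cells were set beside the astrocyte markers that remained in the sorted tumor populations. Of the 65 genes above 1 CPM in astrocytes, 21 had a mean over the 6 SB28 libraries below 1.22% of the astrocyte mean, the highest percentage of Slc1a3 in an SB28 library, among them Kcnj10 (0.489%), Gria3 (0.885%) and Kcnd3 (0.612%). In contrast, 26 genes exceeded 10% of the astrocyte mean, 12 exceeded 50% and 8 exceeded 100%. Other astrocyte markers reached higher percentages in mKate2- replicate 3, at 2.54% for Gfap and 2.36% for Fabp7. Genes between 1.22% and 2.54% included Kcnj2 (1.46%), Cacna1h (1.86%) and Kcnf1 (2.42%). For the first group and for genes up to 2.54%, expression by SB28 cells and RNA carried over from astrocytes cannot be told apart. Only a part of the marker list was followed in this way, so 2.54% is not an upper limit for carried-over RNA. Aldh1l1, also called lower, was between 4.92 and 8.48 CPM in the SB28 libraries against a mean of 141 CPM in astrocytes, a larger share. Its source was not tested, and a value just above 2.54% does not by itself show expression by SB28 cells.

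No channel or receptor gene was called between mKate2+ and mKate2- SB28 cells. Criteria were taken from the study, namely a count above 50, more than a 1.5-fold difference and P below 0.05 without adjustment. The count was read here as the mean normalised count. Of 27 genes tested, 0 met these criteria, which 43 of 11854 genes met (0.363%). The study used them for upregulated genes, and they were applied here in either direction. By edgeR 0 of the 27 had an unadjusted P value below 0.05, compared with 2.03% of all genes tested, and the same held with DESeq2, in which 0 met the criteria. The smallest unadjusted P value was 0.0686, for Cacna1h, with a log2 fold change of -0.57 ± 0.269 (adjusted P = 0.923), and its 3 mKate2+ libraries lay below its 3 mKate2- libraries. Next in order came Cacna1c at -0.31 ± 0.196, Kcnn1 at 0.65 ± 0.487, Cacna1a at 0.32 ± 0.267 and Grik5 at -0.10 ± 0.0859 on the log2 scale, each with an adjusted P value of 0.923 in edgeR. The difference was within 0.5 on the log2 scale for 25 of the 27 genes, and the median standard error was 0.196, so smaller differences were not resolved with 3 libraries per population.

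**Figure D5:**
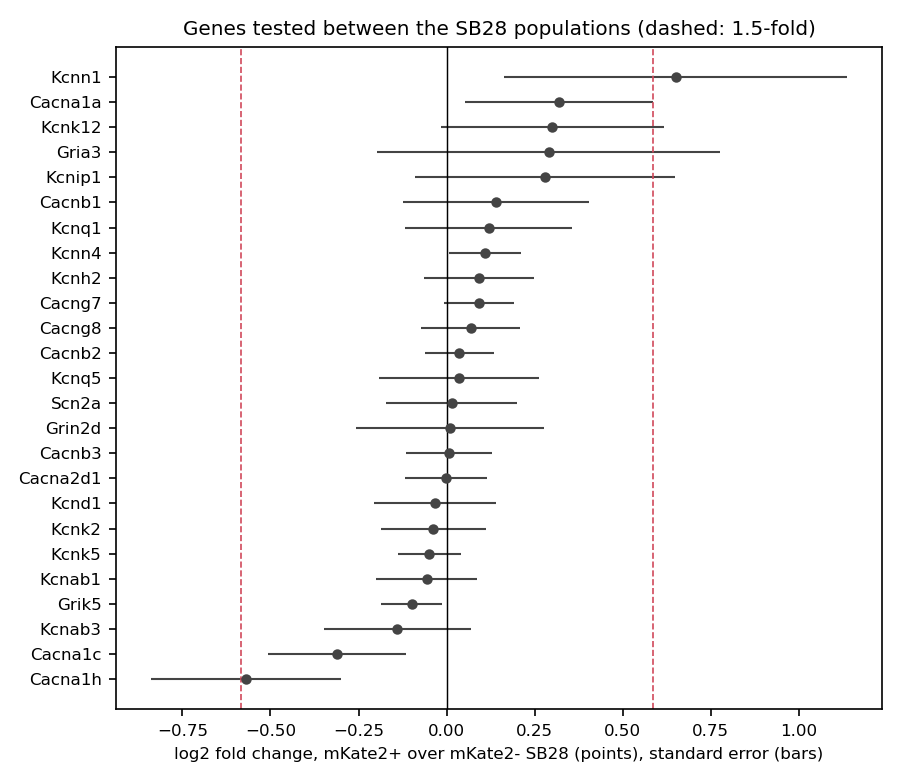
Log2 fold change of mKate2+ over mKate2- SB28 cells (points) and its standard error (bars) from edgeR for 25 of the tested channel and receptor genes, with dashed lines at 1.5-fold. Of these, 23 lie within 0.5 of 0, Kcnn1 alone lies beyond a dashed line, with a standard error of 0.487, and Cacna1h lies just inside the other.

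For 3 genes that were higher in SB28 cells than in astrocytes, the mKate2+ over mKate2- log2 differences were -0.05 ± 0.0896 for Kcnk5, 0.11 ± 0.102 for Kcnn4 and -0.06 ± 0.143 for Kcnab1. Across the 170 genes with a count, 8 (4.71%) were lower in each mKate2+ library than in every mKate2- library and 0 were higher, where 5.47% and 1.97% of protein-coding genes with a count fell into these groups, so both shares were near or below the background.

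Genes outside these families that act with the channels and receptors were followed as fixed lists. Of 22 further channel subunits and partners, 7 were tested in each comparison with astrocytes, and 0 were higher while 5 were lower in mKate2- cells (Amigo1, Shisa6, Neto2, Fgf13 and Nalcn) and these and Fgf14 in mKate2+ cells, where the call of Fgf14 was lost without any 1 mKate2+ library. Only Amigo1 and Neto2 among the lower genes were above the filter in both cell types, where 2 of 3 genes were lower in each comparison, and the others had passed through astrocytes alone. The leak channel Nalcn was 50.1 ± 12.9 CPM in astrocytes, 0.618 ± 0.294 in mKate2- and 0.557 ± 0.230 in mKate2+ cells. The kainate receptor auxiliary subunit Neto2, a partner of Grik5, was 86.5 ± 14.9, 34.2 ± 0.220 and 31.7 ± 5.15 CPM, with log2 fold changes of -1.32 ± 0.131 and -1.37 ± 0.166 (adjusted P = 0.000108 and 0.000338), and Amigo1, an auxiliary protein of Kv2 channels, was 34.4 ± 5.36, 8.47 ± 0.125 and 8.47 ± 0.860 CPM. Of 18 postsynaptic scaffold and anchoring genes tested, 0 were higher and 7 and 8 were lower, or 5 and 6 of the 15 above the filter in both cell types. Dlg4, which encodes PSD-95, was among them, at 166 ± 9.73, 55.4 ± 4.71 and 55.4 ± 0.475 CPM, while the related Dlg1 was 220.0 ± 16.3, 211 ± 7.62 and 194 ± 25.8 CPM and was not called.

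In the GABA system, 4 of 6 genes tested (among them Gad1, Gad2 and Abat) were lower in mKate2- cells, these and Gabbr1 in mKate2+ cells, and 0 were higher. Of the 3 genes above the filter in both cell types, 1 (Abat) and 2 (Abat and Gabbr1) were lower. The call of Gabbr1 was lost without astrocyte replicate 2. The synthetic enzyme Gad2 was 25.0 ± 14.8 CPM in astrocytes, 0.521 ± 0.253 in mKate2- and 0.351 ± 0.121 in mKate2+ cells, and the degrading enzyme Abat was 88.5 ± 55.6, 3.67 ± 0.301 and 2.86 ± 0.700 CPM. Both were highest in astrocyte replicate 3, and without it the log2 fold changes in mKate2- cells went from -5.57 to -4.98 for Gad2 and from -4.56 to -3.94 for Abat, and in mKate2+ cells from -4.87 to -4.26 for Abat. Of other cation channels, 1 was higher and 7 were lower among 18 tested in mKate2- cells and among 19 in mKate2+ cells, or 1 and 5 of the 16 above the filter in both cell types, with Trpv2 no longer called without any 1 mKate2- library. The gene that rose was Piezo2, a mechanically gated channel, at 7.37 ± 3.26, 44.6 ± 1.28 and 40 ± 7.38 CPM, with log2 fold changes of 2.61 ± 0.293 and 2.51 ± 0.319 (adjusted P = 0.000186 and 0.000433). Its relative Piezo1 was 372 ± 45.7, 349 ± 27.0 and 348 ± 43.8 CPM, with log2 differences of -0.07 ± 0.121 and -0.02 ± 0.137.

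Most chloride channel genes were not called, with 0 of 15 tested genes, each above the filter in both cell types, higher and 2 (Clcn2 and Lrrc8b) or 3 (also Clcn4) lower. The calls of Lrrc8b and Clcn4 lay at the fold threshold and were lost without astrocyte replicate 3 and, but for Lrrc8b in mKate2+ cells, without some SB28 libraries, whereas Clcn2 kept its call at 43.6 ± 7.68, 9.56 ± 1.04 and 8.25 ± 0.926 CPM. Among 16 tested receptors for purines, monoamines, acetylcholine and glycine, 1 was higher and 9 were lower in each comparison, but 8 of the latter had passed the filter only through astrocytes. Of 8 (mKate2-) and 7 (mKate2+) genes above it in both cell types, 1 was higher and 1, P2rx7, lower. The gene that was higher, the adrenergic receptor Adra1b, lost its call in mKate2- cells without astrocyte replicate 2, and Adora1 lost its call without mKate2- replicate 2 or 3 and without any 1 mKate2+ library. The purine receptor P2rx7 was lower, at 77.9 ± 2.5, 11.6 ± 0.543 and 10.4 ± 0.773 CPM, with log2 fold changes of -2.73 ± 0.108 and -2.83 ± 0.127 (adjusted P = 4.48e-06 and 6.88e-06), while P2ry2 was 58.2 ± 13.6, 65.6 ± 1.42 and 66.9 ± 1.52 CPM and was not called. None of the genes of these lists met the criteria between mKate2+ and mKate2- cells. The lists were drawn up with earlier results of these data known, and their counts are read beside the backgrounds of 11.5% to 12.2% higher and 22.4% to 22.8% lower given above, and those over genes above the filter in both cell types beside 12.1% to 13.1% and 12.9% to 13.1%.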

How the data were processed

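The authors trimmed reads with Trimmomatic 0.36, mapped them to GRCm38 with STAR 2.5.2b and deposited counts per gene from featureCounts (Subread 1.5.2), without normalization. The annotation release and the use of strand are not given in the sources used here. All 9 libraries were mapped by name. The genes, lists and classes were chosen with earlier results of these data known. Symbols, positions and exonic lengths came from GENCODE M21, in which 259 IDs lack a name, and promoters from RefSeq. CPM used total counts, and a count of 0 was bounded by 3 counts per population. Tests used R 4.3.3 and edgeR 4.0.16 (TMM, quasi-likelihood, genes above 1 CPM in at least 2 of 6 libraries, Benjamini-Hochberg over all genes). The procedure was also run on simulated counts with the same spread for all genes and smaller changes than many of those reported. That run does not cover genes near 0 in 1 population or of uneven spread, and nothing here is drawn from it. For mKate2+ against mKate2- cells the study's unadjusted criteria, stated for upregulated genes, were applied in either direction. Genes were named as the 8 called with the smallest adjusted P value per direction in each comparison with astrocytes, the leading gene per kilobase of each class above 1 CPM, the 5 smallest P values between SB28 populations, and a fixed list, 40 in all, some of which are not reported here. Alternatives covered DESeq2 1.42.0, upper-quartile normalization, other filters, all 9 libraries in 1 fit, a replicate block, removal of a gene length trend (loess span 0.3, limma 3.58.1) and each library left out. P values measure the spread between libraries, and intervals on low counts cover counting error only. The mKate2 transgene and the reads were not analysed here.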

Additional observations from a re-analysis of the deposited data

How the results depend on the processing

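Across the refits with another tool, normalization, filter or set of libraries, the numbers of called genes stayed within 1.5 times, except that the number lower in mKate2- cells than in astrocytes rose from 46 to 75 without a filter on low counts, where 170 instead of 60 genes were tested. Counted over genes above the filter in both populations, 11 instead of 46 were lower in mKate2- and 12 instead of 46 in mKate2+ cells, since fewer genes were tested. With DESeq2, 44 genes were lower in each comparison with astrocytes, and it gave no adjusted P value for Gria1 and Kcnk1. With minimums of 0.5 or 2 CPM, 80 or 53 genes exceeded the minimum on average in astrocytes, 31 or 21 in mKate2- cells and 30 or 20 in mKate2+ cells. A replicate block left the counts at 6 higher and 46 lower (mKate2-), 7 and 46 (mKate2+) and 0 between the SB28 populations. The block moved the log2 fold change of Gria1 to -4.46 and -5.37. Libraries with the same number had correlations of their deviations between -0.147 and 0.251, not all above 0.1, and those with different numbers between -0.275 and 0.252. Between the SB28 populations the values were -0.0037, 0.136 and 0.17 for the same number and between -0.178 and 0.082 otherwise. These correlations do not settle whether a number marks a shared co-culture, no label says so, and the libraries were not paired in the main fits. Of the genes called, 42 of 46 lower and 5 of 6 higher (mKate2-) and 42 of 46 and 6 of 7 (mKate2+) kept the call in each fit without 1 library that tested them, although 5 and 6 of those lower, respectively, dropped below the filter in some fits, and 35 and 34 had passed it only through astrocytes. The calls lost beside those of the report were Gria1 without any 1 library of the SB28 population compared, Kcnj14 without replicate 1 of either SB28 population, and Cacna1i without mKate2- replicate 1 or 3. Cacna1c also lost its call in mKate2- cells with the gene length trend removed, at -0.92. The spread between 3 libraries and counts near 0 in SB28 cells limit the size of the largest fold changes.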

Other observations

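Of 6 noncoding antisense genes whose symbols match the same patterns, Kcnq1ot1 was the only one above 1 CPM in any of the 9 libraries, and Kcnd3os was at most 0.712 CPM in astrocytes and at 0 in the 6 SB28 libraries, where Kcnd3 itself was at most 0.472 CPM.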
